A study of Sus scrofa with 92 samples.

Results

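Subcutaneous adipose tissue of pigs of Chinese and Western breeds was compared by RNA sequencing. The comparison used the 9 subcutaneous adipose libraries among the 92 libraries of the series, which covers 10 breeds, 9 tissues and mixtures of tissues. The Chinese breeds were Bamei (BM), Jinhua (JH), Meishan (MS) and Rongchang (RC), and the Western breeds were Berkshire (BK), Hampshire (HA), Landrace (LA), Large White (LW) and Piétrain (PI). Each of the 9 breeds gave 1 adipose library, and all pigs were 60 days old. No genotype or treatment was labelled for any group. The labels give the breed, and the grouping by origin was made from general knowledge of the breeds. They give neither the sex of the pigs nor whether a library is 1 animal or a pool, and they do not say whether the tissues of a breed came from 1 animal. The series was labelled as a resource for gene annotation, so no purpose of an origin comparison is stated. With the breeds as replicates, p-values set the difference between the origins against the spread among 4 and 5 single libraries.

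Subcutaneous fat stores triglyceride in adipocytes, which coat their lipid droplets with perilipins and make new fatty acid from glucose or release stored fatty acid on demand. Mitochondria of white adipocytes supply the substrates and energy of this traffic through oxidative phosphorylation, whose subunits are encoded partly in the nucleus and partly in the mitochondrial genome. Chinese indigenous pigs are known for fat carcasses and the Western breeds used here mostly for lean growth.

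Expression was deposited as FPKM, a fragment count corrected by the authors for transcript length and for library size. Levels below are FPKM scaled between the 9 libraries by median ratios, and differences are on the log2(scaled FPKM + 1) scale, Chinese minus Western, which understates the change of low genes. A gene was called when its limma p, adjusted by Benjamini and Hochberg over all genes tested, was under 0.05. Depth in reads is unknown, and total FPKM ran from 550285 to 921614 per library, with 12093 to 12889 genes at 1 FPKM or more. In all, 81 gene IDs were listed at 0 in 1 or more of these libraries and at 100 FPKM or more in another, among them the collagen gene COL3A1 at 0 in 4 libraries, so a value of exactly 0 is given only as listed at 0.

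All 9 libraries carried adipocyte transcripts. PLIN1, the perilipin of adipocyte lipid droplets, was at 506 (BM), 514 (JH), 526 (MS) and 461 (RC) scaled FPKM in Chinese adipose, against 449 (BK), 398 (HA), 513 (LA), 628 (LW) and 702 (PI) in Western adipose. The 9 adipocyte markers matched in the files summed to between 2220 and 3203 in the Chinese libraries and between 2433 and 3404 in the Western ones, so the groups overlapped. Skeletal muscle transcripts differed far more between libraries. The 16 matched muscle markers summed to 677 (BM), 1421 (JH), 9451 (MS) and 1165 (RC) in Chinese adipose and to 692 (BK), 515 (HA), 3988 (LA), 532 (LW) and 601 (PI) in Western adipose. Meishan stood highest and Landrace second, and no marker was at 0 in all libraries. The median muscle marker in the Meishan library stood at 8.31% of its level in the longissimus dorsi muscle of the same breed, against 1.33% in Jinhua, 1.30% in Landrace and 0.0872% to 0.480% in the other 6 breeds. The fast myosin light chain MYL11 stood at 1339 in Meishan and 353 in Landrace, while TNNC1, the slow and cardiac troponin C, was at 14.0 in Meishan and 168 in Landrace. In bulk tissue, more cells of a type and more RNA per cell cannot be told apart. The comparison over all genes was therefore repeated without Meishan.

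**Figure D1:**
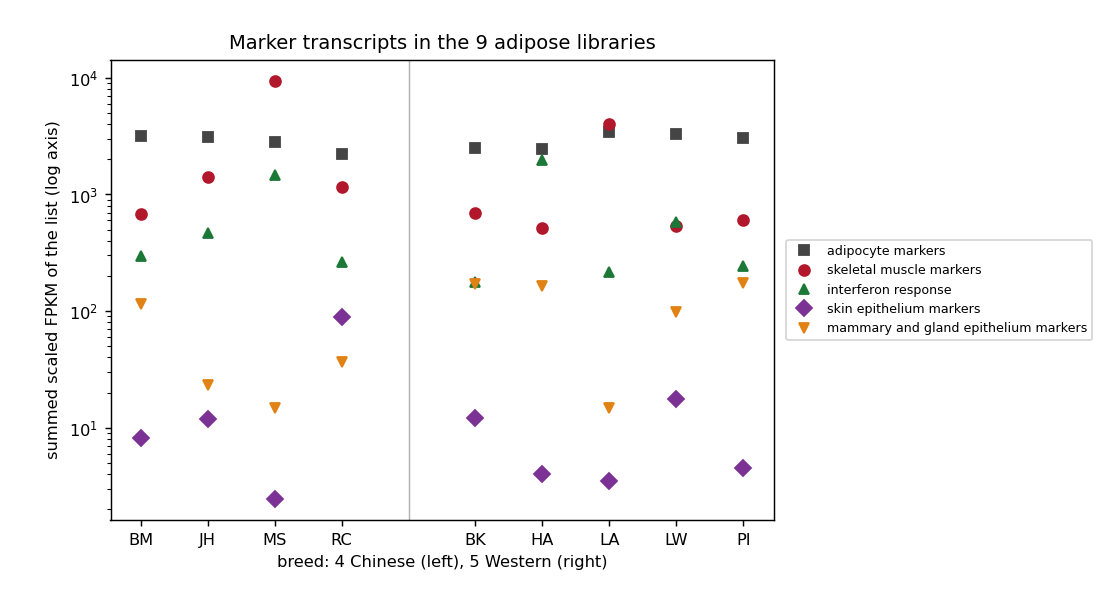
Summed scaled FPKM of 5 marker lists (log axis) in each adipose library, Chinese breeds left and Western breeds right. Adipocyte markers lie between 2220 and 3404 in every library, while skeletal muscle markers reach 9451 in Meishan and 3988 in Landrace.

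The other lists of marker genes also showed single libraries apart. The 12 skin epithelium markers summed to 89.2 in Rongchang and to 2.43 to 17.6 in the other 8 libraries. The 19 interferon response genes summed to 1461 in Meishan and 1990 in Hampshire, and to 179 to 576 in the others. The 12 markers of mammary and gland epithelium, dominated by the tight junction gene CLDN4, ran from 14.6 (MS) to 114 (BM) in Chinese adipose and from 14.7 (LA) to 174 (PI) in Western adipose, and 3 of them were at 0 in every library. The part of skin, interferon and gland transcripts in the differences described next was not tested. With the mean muscle marker level as a covariate, 6 genes were called in the comparison that follows, 5 of them among the 12 called without it.

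Few genes separated the origins beyond the spread between the single libraries of the breeds. Of 12923 genes tested, 12 were called (0.0929%), 3 higher and 9 lower in Chinese adipose. Among those with a symbol, PCDHAC2 was higher, and SNCG and DCLK3 were lower. Below an unadjusted p of 0.05 lay 428 genes higher (3.31%) and 670 lower (5.18%) in Chinese adipose, and the median difference over all genes was -0.00537. The count of calls rested on single libraries: it was 7 without Bamei, 7 without Hampshire, 7 without Landrace and 6 without Meishan.

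SNCG, gamma-synuclein, a small protein known from neurons and, in mouse and human, from white adipocytes, fell in Chinese adipose. It was at 1.75 (BM), 2.36 (JH), 1.38 (MS) and 1.79 (RC) scaled FPKM in Chinese adipose, against 31.2 (BK), 26.2 (HA), 10.4 (LA), 26.6 (LW) and 25.3 (PI) in Western adipose. The groups lay far apart, and Landrace was the lowest of the Western breeds. The means were 1.82 ± 0.404 (SD, n = 4) in Chinese and 23.9 ± 7.89 (n = 5) in Western adipose, with the Western mean 13.2 times the Chinese one. The log2 difference was -3.07 ± 0.28 (SE, limma adjusted p = 0.00339), and it was called in each of the 9 fits that left out 1 breed. Without both Rongchang and Meishan its adjusted p was 0.161.

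DCLK3, a protein kinase of the doublecortin-like family, fell as well. It was at 0.355 (BM), 0.832 (JH), 0.912 (MS) and 1.06 (RC) in Chinese adipose, against 4.47 (BK), 3.93 (HA), 8.03 (LA), 6.45 (LW) and 12.1 (PI) in Western adipose. Every Western library was above every Chinese one, and Piétrain was the highest. The means were 0.791 ± 0.306 and 7.003 ± 3.30 in Chinese and Western adipose (SD, n = 4 and 5), a log2 difference of -2.08 ± 0.28 (SE, limma adjusted p = 0.0383). DCLK3 lost its call in 7 of the 9 fits without 1 breed (without Bamei, Jinhua, Meishan, Rongchang, Berkshire, Landrace or Large White, adjusted p up to 0.118), and its log2 difference stayed between -2.24 and -1.88.

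PCDHAC2, a protocadherin of the alpha cluster that acts in cell adhesion, was the called gene with a symbol that was higher in Chinese adipose. It was at 2.74 (BM), 4.48 (JH), 2.87 (MS) and 2.59 (RC) in Chinese adipose, against 0.693 (BK), 0.994 (HA), 0.867 (LA), 0.615 (LW) and 1.22 (PI) in Western adipose. No Western library reached the lowest Chinese one, and Jinhua was the highest. The log2 difference was 1.14 ± 0.16 (SE, limma adjusted p = 0.0484), and the call was lost without any one of the 9 breeds, with adjusted p between 0.0507 and 0.125. Protocadherins of the alpha cluster share their last exons, so the reads of PCDHAC2 and of its neighbours may have been divided between them.

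**Figure D2:**
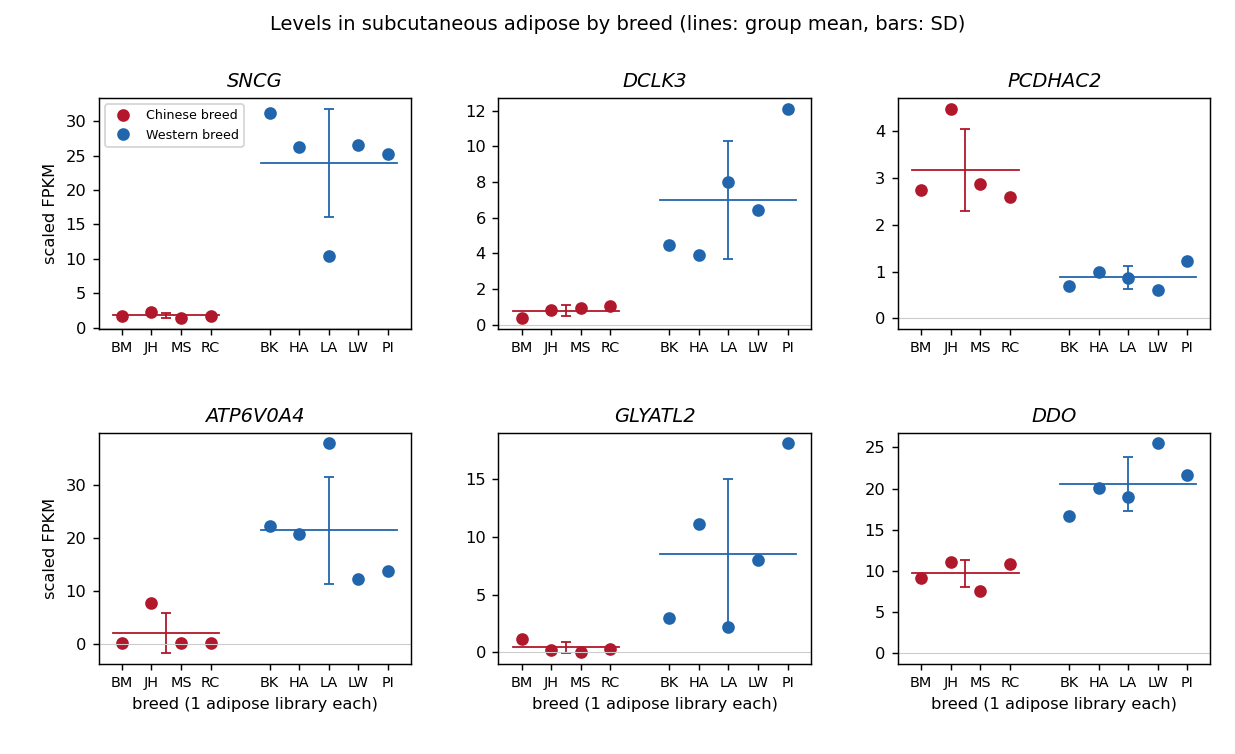
Scaled FPKM of 6 genes in each adipose library, Chinese breeds in red on the left and Western breeds in blue on the right, with group means (lines) and SD (bars). The groups do not overlap for any of the 6 genes, which were chosen with results of these data known. Jinhua stands apart from the other Chinese breeds for ATP6V0A4.

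Of the 8 called genes with no symbol, the 2 that were higher in Chinese adipose were ENSSSCG00000027743 and ENSSSCG00000028909. ENSSSCG00000027743 was at 2.11 (BM), 4.25 (JH), 3.97 (MS) and 3.77 (RC) in Chinese adipose, against 0.289 (HA), 0.125 (LW) and listed at 0 in Berkshire, Landrace and Piétrain (log2 difference 2.04 ± 0.18, limma adjusted p = 0.00339). ENSSSCG00000028909 was at 4.30 to 8.41 in Chinese adipose, and in Western adipose at 0.972 (BK), 0.198 (LA), 0.224 (LW) and 0.197 (PI) and listed at 0 in Hampshire. Among the 6 that were lower, ENSSSCG00000012517 was at 0.0769 to 0.279 in Chinese adipose and 3.30 to 6.56 in Western adipose (log2 difference -2.21 ± 0.17, adjusted p = 0.00261). ENSSSCG00000030690 was at 0.149 (BM) and 0.120 (JH) and listed at 0 in Meishan and Rongchang, against 2.18 to 4.42 in Western adipose. These 4 IDs and SNCG were called in all 9 fits without 1 breed. Each was also called outside adipose, as given below.

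Further genes had groups that did not overlap but did not pass the adjusted threshold. The share of all tested genes with no overlap is not given here. For genes picked by a small p, a lack of overlap follows largely from that choice. ATP6V0A4, a subunit of the vacuolar proton pump best known from kidney and inner ear, was at 0.0989 (BM), 7.62 (JH), 0.0619 (MS) and 0.101 (RC) in Chinese adipose, against 22.3 (BK), 20.8 (HA), 37.9 (LA), 12.2 (LW) and 13.8 (PI) in Western adipose. Jinhua stood apart from the other 3 Chinese breeds. The log2 difference was -3.51 ± 0.63 (SE, limma adjusted p = 0.118), and without Jinhua it was -4.25 with an adjusted p of 0.00642. ATP6V0A4 was not called in the other 8 fits without 1 breed, with an adjusted p up to 0.303. GLYATL2, a glycine acyltransferase-like enzyme that forms acyl glycines, was at 1.11 (BM), 0.171 (JH), 0.0480 (MS) and 0.288 (RC) in Chinese adipose, against 2.95 (BK), 11.1 (HA), 2.21 (LA), 7.995 (LW) and 18.1 (PI) in Western adipose. Its Western values spread over a wide range, and the log2 difference was -2.50 ± 0.51 (adjusted p = 0.197).

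On the lower side, 5 further genes were among the 8 with the smallest p. DDO, the peroxisomal D-aspartate oxidase, averaged 9.69 ± 1.64 scaled FPKM in Chinese and 20.6 ± 3.29 in Western adipose (SD, n = 4 and 5), a log2 difference of -1.02 ± 0.15 (SE, limma adjusted p = 0.0549). APOOL, a subunit of the complex that shapes mitochondrial cristae, averaged 5.40 ± 1.42 in Chinese and 12.5 ± 1.99 in Western adipose (-1.09 ± 0.17, adjusted p = 0.0682). Its adjusted p was 0.0275 without Rongchang. MTARC2, a reductase of the outer mitochondrial membrane, averaged 57.7 ± 14.4 in Chinese and 132 ± 22.5 in Western adipose (-1.20 ± 0.20, adjusted p = 0.105). DTD2, a deacylase that removes misloaded amino acids from transfer RNA, differed by -0.61 ± 0.10 and NOPCHAP1, a chaperone in small nucleolar RNP assembly, by -0.56 ± 0.10. The Chinese and Western libraries did not overlap for any of these 5 genes, which adds no support, since they were picked by their p in this comparison.

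On the higher side, 7 genes complete the 8 with the smallest p. MYZAP, a protein of cardiac and endothelial cell junctions, averaged 2.96 ± 0.709 in Chinese and 0.974 ± 0.240 in Western adipose (SD, n = 4 and 5), a log2 difference of 0.99 ± 0.15 (SE, limma adjusted p = 0.0707). GBP1, an interferon-induced guanylate-binding protein, averaged 1.63 ± 0.490 in Chinese and 0.347 ± 0.146 in Western adipose (0.96 ± 0.16, adjusted p = 0.0934). KLHL4, a kelch-like protein, averaged 3.14 ± 1.04 and 0.925 ± 0.235 (1.08 ± 0.19, adjusted p = 0.113). ZNF414, a zinc finger protein, OLFM1, a secreted olfactomedin, MFN2, the mitofusin of outer membrane fusion, and NRP1, a co-receptor of VEGF and semaphorins, differed by 0.54, 0.68, 0.46 and 0.59 with adjusted p of 0.197 to 0.261. NRP1 was the most abundant of them, at 46.6 to 58.8 in Chinese and 26.2 to 38.2 in Western adipose. The groups did not overlap for any of the 7, which were likewise picked by their p, so this adds no support.

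Without Meishan, 3 Chinese libraries were set against 5 Western ones, and 6 of 12805 genes were called (0.0469%), 2 higher and 4 lower. Of the 6, 5 were among the 12 called with Meishan, namely SNCG and the 4 gene IDs given above, and ENSSSCG00000028347 was called in addition. SNCG differed by -3.00 ± 0.31 (SE, limma adjusted p = 0.0248). DCLK3 (-2.12 ± 0.32, adjusted p = 0.103) and PCDHAC2 (1.16 ± 0.18, 0.118) kept their size and did not pass. Below an unadjusted p of 0.05 lay 479 genes higher (3.74%) and 605 lower (4.72%). With a further breed left out, limma called 0 genes without Bamei, Jinhua or Rongchang (823, 681 and 1161 at an unadjusted p under 0.05), 3 without Berkshire, 2 without Hampshire, 3 without Landrace, 4 without Large White and 1 without Piétrain.

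**Figure D3:**
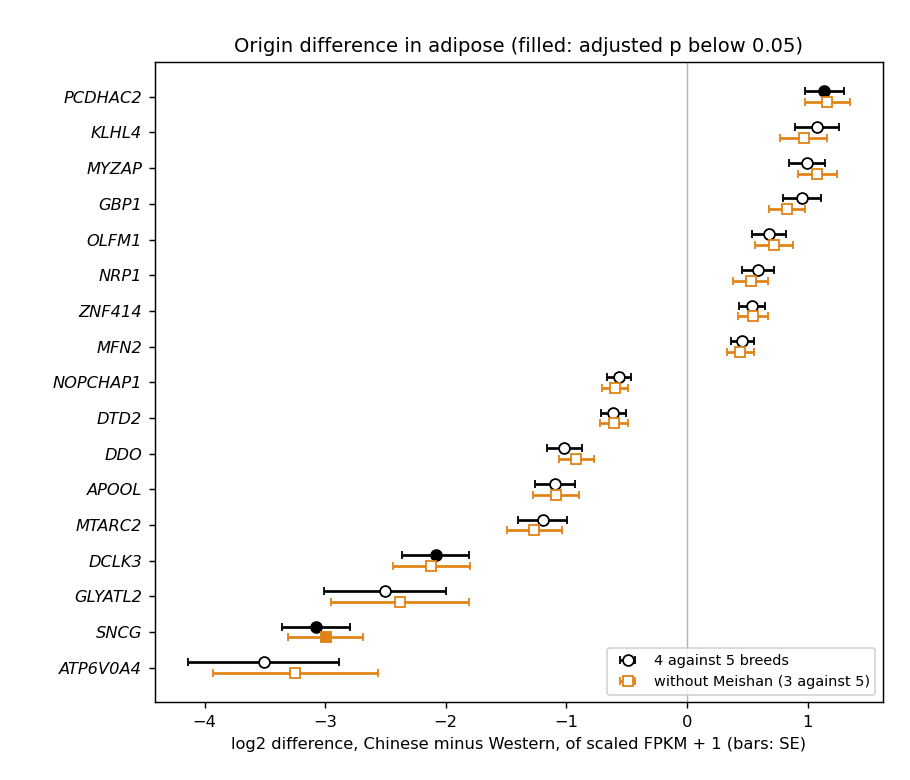
Log2 difference of Chinese minus Western adipose with its SE for 17 genes, over all 9 breeds (black circles) and without Meishan (orange squares), filled where the adjusted p is under 0.05. Only SNCG is filled in both. No gene changes sign, which adds no support, since the groups of these genes do not overlap over all 9 breeds.

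Nuclear genes of oxidative phosphorylation were lower in Chinese adipose as a group, by a log2 of -0.827 to -0.147 and none past the adjusted threshold. Of 21 subunits and assembly factors tested, 21 had a log2 difference below 0, against 51.1% of all genes, with a median of -0.319. At an unadjusted p under 0.05, 10 were lower and 0 higher, against 5.18% and 3.31% of all genes, and limma called 0. Their summed level was 1674 (BM), 1755 (JH), 1916 (MS) and 1658 (RC) in Chinese adipose, against 2238 (BK), 1981 (HA), 2226 (LA), 2681 (LW) and 1965 (PI) in Western adipose. No Chinese library reached the lowest Western one, although Meishan, which also held the most muscle transcripts, came within a small distance of it.

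ATPAF2, an assembly factor of the mitochondrial ATP synthase, had the smallest p of the list. It was at 7.62 (BM), 6.01 (JH), 4.71 (MS) and 3.78 (RC) in Chinese adipose, against 11.2 (BK), 8.28 (HA), 11.1 (LA), 12.7 (LW) and 8.86 (PI) in Western adipose (log2 difference -0.83 ± 0.19, limma adjusted p = 0.261). NDUFA9, a subunit of complex I, was at 32.5 (BM), 33.3 (JH), 45.03 (MS) and 39.6 (RC) in Chinese adipose, against 55.3 (BK), 48.4 (HA), 53.4 (LA), 58.1 (LW) and 53.2 (PI) in Western adipose (-0.51 ± 0.12, adjusted p = 0.277). Neither gene had overlapping groups, which adds no support, since both were picked by their p in this comparison. Without Meishan the median of the list was -0.355, with 21 of 21 below 0 and 9 lower at an unadjusted p under 0.05. On FPKM as deposited the median was -0.242 and after quantile normalization -0.217, and 5 members were lower at an unadjusted p under 0.05 under each, so the number of members below that p depended on the scaling.

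Related lists leaned the same way with fewer members, beside 51.1% of all genes below 0 and 5.18% lower at an unadjusted p under 0.05. Of 16 tested genes of fatty acid oxidation 14 were below 0 (median -0.275) and 3 lower at an unadjusted p under 0.05, among them ETFB (-0.47 ± 0.14, limma adjusted p = 0.398) and ETFA (-0.35 ± 0.11, adjusted p = 0.465), the subunits of the electron transfer flavoprotein. ETFB was at 121 (BM), 149 (JH), 161 (MS) and 111 (RC) in Chinese adipose, against 188 (BK), 199 (HA), 181 (LA), 199 (LW) and 165 (PI) in Western adipose. Its groups did not overlap, but the gene was likewise picked by its p, so this adds no support. Of the 13 genes of the mitochondrial genome 11 were below 0 (median -0.339) and 3 lower at an unadjusted p under 0.05. The 2 with the smallest p were ND6 (-0.49 ± 0.19) and ND1 (-0.53 ± 0.20), subunits of complex I, and the summed level of the 13 overlapped, at 103800 to 117400 in Chinese and 96200 to 158600 in Western adipose. Without Berkshire, the lowest Western library in that sum, 9 of the 13 were lower at an unadjusted p under 0.05, without Landrace 0, and on FPKM as deposited 0. All 8 ribosomal protein genes tested were below 0 (median -0.240), 1 of them lower at an unadjusted p under 0.05, RPS3 (-0.28 ± 0.12), and 0 on FPKM as deposited or after quantile normalization. Limma called 0 members of these 3 lists.

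**Figure D4:**
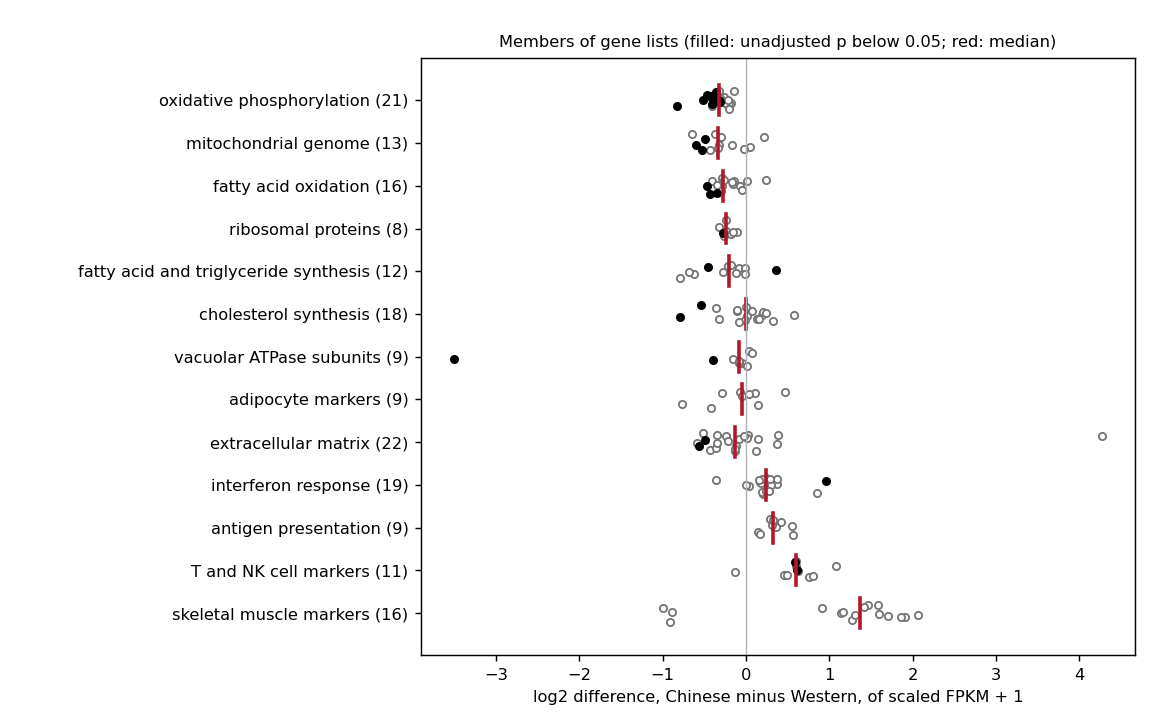
Log2 difference of Chinese minus Western adipose for the tested members of 13 gene lists (number tested in parentheses), filled where the unadjusted p is under 0.05, with the median in red. All 21 members of oxidative phosphorylation lie below 0, skeletal muscle markers reach 2.06, and the point at 4.28 is COL3A1, listed at 0 in 4 libraries.

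Among the genes that make fat, SCD and FASN differed widely between single libraries within each origin. Of 12 genes of fatty acid and triglyceride synthesis 11 were below 0 (median -0.203), with 1 higher and 1 lower at an unadjusted p under 0.05, and without Large White the median was 0.0469. SCD, the stearoyl-CoA desaturase, was at 10.8 (BM), 17.4 (JH), 117 (MS) and 179 (RC) in Chinese adipose, against 324 (BK), 4.77 (HA), 70.3 (LA), 1831 (LW) and 6.57 (PI) in Western adipose. FASN, the fatty acid synthase, was at 14.1 (BM), 13.3 (JH), 96.5 (MS) and 237 (RC) in Chinese adipose, against 428 (BK), 20.7 (HA), 29.4 (LA), 562 (LW) and 22.4 (PI) in Western adipose. Large White and Berkshire were high and Hampshire and Piétrain low, so both genes overlapped widely between the origins (log2 differences -0.62 ± 1.72 and -0.80 ± 1.29), and both were chosen here after their values were seen. DGAT1, which completes triglyceride synthesis, was at 22.2 to 36.2 in Chinese and 37.5 to 48.7 in Western adipose (-0.46 ± 0.15, limma adjusted p = 0.481), and GPAM, the first step of glycerolipid synthesis, was at 3.76 to 6.08 and 2.89 to 4.25 (0.36 ± 0.15, adjusted p = 0.584).

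Adipocyte markers, adipogenic transcription factors, lipolysis and lipid droplet genes, insulin and glucose handling, the growth hormone and IGF axis and adipose progenitor markers had 0 members called by limma and 0 at an unadjusted p under 0.05. Their medians ran from -0.0587 for adipogenic transcription factors to 0.0658 for insulin and glucose handling, near the median of all genes. Over all genes tested, 5.18% were lower at an unadjusted p under 0.05. In cholesterol synthesis, 2 of 18 genes were lower at that p, among them HSD17B7 (-0.54 ± 0.21). In the extracellular matrix list, 2 of 22 were lower, ELN, which encodes elastin (-0.49 ± 0.20), and POSTN, which encodes periostin (-0.56 ± 0.23). Of 9 tested subunits of the vacuolar proton pump, ATP6V0A4 and ATP6V0D1 (-0.40 ± 0.10) were lower at an unadjusted p under 0.05. The summed level of the 14 matched pump subunits was 151 to 172 in Chinese and 184 to 221 in Western adipose. That sum includes ATP6V0A4 itself, at 0.0619 to 7.62 in Chinese and 12.2 to 37.9 in Western adipose. Over the 9 tested subunits the median difference was -0.0831, with 6 below 0 and 3 above, so the sum does not show a lower level of the pump as a whole. BEX1, a small adaptor protein known from neurons, was lower by a log2 of -1.78 ± 0.32 (limma adjusted p = 0.118), at 3.79 (BM), 2.29 (JH), 1.96 (MS) and 2.13 (RC) in Chinese adipose, against 6.78 (BK), 13.3 (HA), 9.11 (LA), 7.93 (LW) and 23.2 (PI) in Western adipose. The groups did not overlap for BEX1, which adds no support, since the gene was named with results of these data known. Reads of near-identical BEX copies may have been divided.

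Immune lists varied with the libraries used. Of those given here, only interferon response had a median that changed sign on leaving out 1 library. Of 11 tested markers of T and NK cells 10 were above 0 (median 0.605) and 2 higher at an unadjusted p under 0.05, IL7R, the interleukin-7 receptor (0.61 ± 0.21), and PRF1, perforin (0.59 ± 0.25), with 0 called by limma. Over all genes tested, 3.31% were higher at that p. The 12 matched markers summed to 42.0 (BM), 48.0 (JH), 81.7 (MS) and 92.3 (RC) in Chinese adipose, against 21.2 (BK), 57.1 (HA), 25.4 (LA), 66.8 (LW) and 26.3 (PI) in Western adipose. The groups overlapped, with Hampshire and Large White above Bamei and Jinhua. The median was 0.00873 without Rongchang and Meishan, and 7 members were higher at an unadjusted p under 0.05 without Jinhua and 6 without Large White, against 0 without Meishan. All 9 tested genes of antigen presentation were above 0 (median 0.325), none at an unadjusted p under 0.05, with a median of -0.0765 without Rongchang and Meishan. Of 19 interferon response genes 18 were above 0 (median 0.238). Without Meishan 2 of the 19 interferon genes were above 0 (median -0.299), and without Berkshire (-0.0471) and without Landrace (-2.38e-05) the median was also below 0. T and NK cell markers were mostly above 0 in heart (9 of 9), liver (9 of 11), lung (11 of 12) and kidney (10 of 10) as well. The same held in psoas major and longissimus dorsi (6 of 6 each), but not in spleen (5 of 12) or ovary (1 of 9).

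In 22 of the 43 lists no member had an unadjusted p under 0.05, beside 3.31% of all genes higher and 5.18% lower at that p. The skeletal muscle list was among them: its median was 1.36, with 13 of 16 members above 0, and 0.392 without Meishan. The 7 tested skin epithelium markers were all above 0 (median 0.514). Among further members below that p, CD22 of B cells (0.61 ± 0.19), CA2, a carbonic anhydrase in the erythroid list (1.012 ± 0.33), NR3C1, the glucocorticoid receptor (0.27 ± 0.10), and NQO1, a quinone reductase (0.46 ± 0.18), were higher in Chinese adipose. PDK1, a kinase that inhibits pyruvate dehydrogenase (-0.42 ± 0.11), IRX3, a homeobox factor (-0.51 ± 0.19), CFI, complement factor I (-0.65 ± 0.25), and CAT, catalase (-0.26 ± 0.11), were lower, and limma called none of these 8.

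The same breeds allowed the origin difference to be followed in 8 other tissues. By limma 27 of 12161 genes were called in heart (0.222%), 16 in liver (0.136%), 23 in lung (0.164%), 30 in kidney (0.221%), 11 in ovary (0.0735%), 5 in longissimus dorsi (0.0432%), 3 in psoas major (0.0261%) and 0 in spleen (0%, with 669 at an unadjusted p under 0.05). SNCG was lower in Chinese pigs in all of them and was called in heart, liver, lung, kidney and ovary. In heart it averaged 0.875 ± 0.125 in Chinese and 13.8 ± 4.50 in Western pigs (SD, n = 4 and 5), a log2 difference of -2.92 ± 0.23 (limma adjusted p = 0.00142), and in ovary 0.325 ± 0.109 and 7.61 ± 2.49 (-2.65 ± 0.23, adjusted p = 0.00191). GBP1 was called in heart (1.08 ± 0.16), lung (1.88 ± 0.18) and kidney (0.97 ± 0.13), APOOL in heart (-0.93 ± 0.10) and lung (-0.79 ± 0.10), and MTARC2 in heart (-1.68 ± 0.24). The gene IDs called in all adipose fits without 1 breed also differed beyond adipose. ENSSSCG00000012517 was called in heart, lung, kidney, psoas major and ovary. ENSSSCG00000028909 was called in heart, liver, kidney and longissimus dorsi, ENSSSCG00000027743 in heart and lung, and ENSSSCG00000030690 in kidney. For ENSSSCG00000028909 the log2 difference was 5.78 ± 0.83 in liver and 4.08 ± 0.50 in kidney, against 2.385 ± 0.23 in adipose. Spleen and the 2 muscles include a 5th Chinese library, of Tibetan wild boar, and lung holds 3.

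In the other tissues DCLK3, ATP6V0A4, GLYATL2 and PCDHAC2 were not called by limma, or were under the filter on low values and not tested. DCLK3 averaged 1.55 ± 0.373 in Chinese and 1.95 ± 0.721 in Western kidney (SD, n = 4 and 5) and 2.62 ± 1.07 and 1.76 ± 0.270 in ovary, with overlap in both. ATP6V0A4 averaged 21.98 ± 2.25 in Chinese and 17.1 ± 3.65 in Western kidney, where the groups overlapped and the log2 difference was 0.36 ± 0.15 (limma adjusted p = 0.499). At levels under that filter, ATP6V0A4 was lower in Chinese pigs with no overlap in heart, from listed at 0 up to 0.0196 against 0.0355 to 0.342 in Western pigs, and in psoas major, from listed at 0 up to 0.0766 against 0.170 to 0.463. In longissimus dorsi it was at 0.0173 to 0.170 in Chinese and 0.148 to 0.688 in Western pigs, with overlap. GLYATL2 was under the filter in all 8 other tissues. It was lower in Chinese pigs with no overlap in ovary, from listed at 0 up to 0.178 against 0.386 to 1.33 in Western pigs, and in lung, from listed at 0 up to 0.0549 against 0.121 to 0.516. PCDHAC2 averaged 3.41 ± 1.48 in Chinese (n = 5) and 3.55 ± 0.691 in Western spleen (n = 5).

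**Figure D5:**
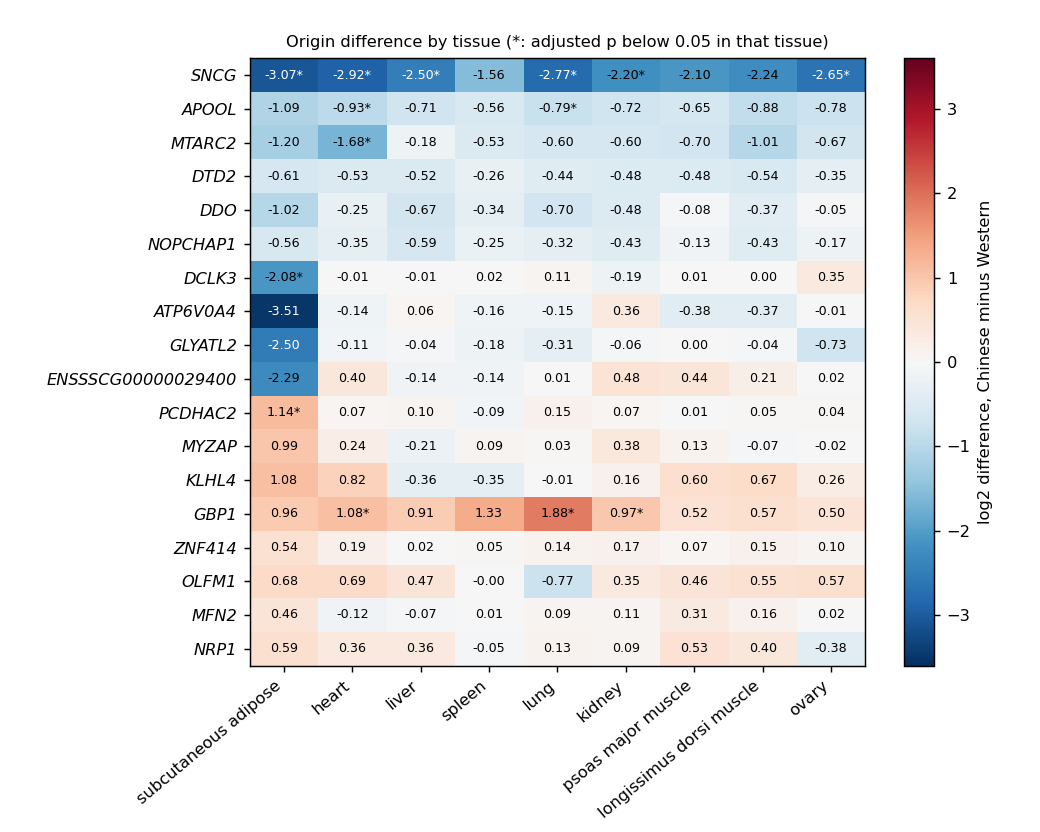
Log2 difference of Chinese minus Western pigs for 18 genes in adipose (left column) and 8 other tissues, with a star where the limma adjusted p in that tissue is under 0.05. SNCG is negative in every column, while ATP6V0A4 is at -3.51 in adipose and 0.36 in kidney.

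Whether the origin difference in adipose differed from that in the other tissues was tested within breeds, as log2 in adipose minus the mean of heart, liver, spleen, kidney, both muscles and ovary. Of 16996 genes 1 was called (0.00588%), ENSSSCG00000029400, which the files do not name. It was at 0.731 (BM), 0.726 (JH), 1.55 (MS) and 2.50 (RC) in Chinese adipose, against 11.4 (BK), 16.5 (HA), 6.62 (LA), 15.6 (LW) and 5.13 (PI) in Western adipose, and at 53.8 ± 3.58 in Chinese and 39.97 ± 13.5 in Western kidney (SD, n = 4 and 5). The adipose groups did not overlap and the kidney groups did. The difference of differences was -2.54 ± 0.26 (SE, limma adjusted p = 0.0363), and the call was kept without Piétrain (adjusted p = 0.00264) and lost without any one of the other 8 breeds (0.0507 to 0.259). In adipose alone the gene differed by -2.29 ± 0.36 with an adjusted p of 0.0740.

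For the other named genes this test did not pass. The difference of differences was -2.06 ± 0.33 for DCLK3 (limma adjusted p = 0.157), -3.29 ± 0.56 for ATP6V0A4 (0.192, and -3.96 with 0.00414 without Jinhua), -2.30 ± 0.51 for GLYATL2 (0.460), 1.04 ± 0.16 for PCDHAC2 (0.121) and 0.86 ± 0.12 for MYZAP (0.120). Without any one breed other than Jinhua, ATP6V0A4 did not pass this test (limma adjusted p of 0.310 to 0.486). For SNCG the difference of differences was -0.58 ± 0.22 (adjusted p = 0.699). The median difference of oxidative phosphorylation genes lay between -0.116 and 0.0312 in the 8 other tissues, with 1 or 2 of 21 members lower at an unadjusted p under 0.05 in each. Over all genes, between 308 of 11514 (psoas major) and 654 of 13552 (kidney) were lower at that p. A lean below 0 was also seen elsewhere: 20 of the 21 were below 0 in heart, 17 each in liver, spleen and kidney, 14 in longissimus dorsi, 11 in psoas major, 9 in ovary and 8 in lung. Against the other tissues the list had a median of -0.281, with 7 of 21 members lower at an unadjusted p under 0.05 and 0 called by limma. Of all 16996 genes in that test, 609 were lower and 500 higher at that p. Other lists also leaned in that test. At that p, 6 of 8 ribosomal protein genes (median -0.261) and 4 of 13 mitochondrial genome genes (median -0.278) were lower. Of 11 T and NK cell markers, 5 were higher (median 0.355).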

How the data were processed

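RNA of 9 subcutaneous adipose samples, with 83 further libraries of the series, was measured by RNA sequencing on total RNA with TruSeq libraries, per the labels' protocols. The authors deposited FPKM for 25322 gene IDs, made with TopHat and Cufflinks 2.2.1 on Sscrofa10.2 per the submitters' processing notes. Annotation release, strandedness and filters are not given in the sources used here. Symbols were matched by gene ID for 11804 IDs.

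FPKM were scaled by median ratios within each fit, genes had to reach 1 FPKM in 3 or more libraries, and log2(scaled FPKM + 1) was fitted with limma 3.58.1 (trend and robust options, two-sided, Benjamini-Hochberg) in R 4.3.3, with statmod 1.5.0. Loading and figures used Python 3.11.15, numpy 2.4.6, pandas 2.3.3 and matplotlib 3.10.9. The fits were tested on simulated data. Low FPKM values gave no common step between libraries, so the depth in reads is unknown. Every error given reflects how single libraries of different breeds vary, in which breed, animal, dissection and library preparation cannot be told apart. No pair of adipose libraries was identical.

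The genes, the 43 gene lists (501 of 729 symbols matched) and the tests were chosen with earlier results of these data known. Named genes carry a symbol. They are, per direction, up to 15 called genes, filled up to 8 by the smallest p, up to 4 called members of a list or else the 2 with the smallest p, and always DCLK3, ATP6V0A4 and GLYATL2. Gene IDs with no symbol, SCD, FASN and further list members were named after their values were seen. Alternatives were another scaling, pseudocount, filter or moderation, leaving out breeds, a muscle covariate and a fit of all 83 single-tissue libraries. The mixtures of tissues were not used here, and some results are not reported here.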

Additional observations from a re-analysis of the deposited data

Results flagged for a closer look

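In groups of 4 and 5 libraries, the gap of the highest or lowest library to its neighbour was set against Dixon's 95% critical value. Past it were 5 of 56 groups of the named genes and 10 of 86 groups of the list sums. Chance gives about 1 in 20 such groups where values are independent and normally distributed. The levels and sums were not logged, and most of these genes were picked by p. The counts can therefore not be judged against that rate. All values are scaled FPKM.

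Among the genes, Jinhua was highest of the Chinese libraries for PCDHAC2, at 4.48 against 2.59 to 2.87, and for ATP6V0A4, at 7.62 against 0.0619 to 0.101. Bamei was highest of the Chinese libraries for DTD2, at 2.89 against 2.62 to 2.65. Landrace was lowest of the Western libraries for SNCG, at 10.4 against 25.3 to 31.2. Berkshire was highest of the Western libraries for ENSSSCG00000028909, at 0.972 against at most 0.224.

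Among the list sums, skeletal muscle markers reached 9451 in Meishan against 677 to 1421 in the other Chinese libraries, and 3988 in Landrace against 515 to 692 in the other Western ones. Interferon response genes reached 1461 in Meishan against 266 to 464, and 1990 in Hampshire against 179 to 576. Hampshire was also highest of the Western libraries for complement, at 1753 against 1035 to 1193, and Landrace for vacuolar ATPase subunits, at 221 against 184 to 194. Rongchang was highest of the Chinese libraries for skin epithelium markers, at 89.2 against 2.43 to 11.9, and for inflammation and acute phase genes, at 516 against 387 to 405. Bamei was highest for smooth muscle and pericyte markers, at 621 against 421 to 453, and for glycine and acyl conjugation, at 3.70 against 0.891 to 1.34.

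ENSSSCG00000029400 had an origin difference in adipose that differed from that in 7 other tissues by a log2 of -2.54, in a test of the difference itself.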

How the results depend on the processing

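The 12 calls in adipose became 12 on FPKM as deposited, 11 after quantile normalization, 7 with a pseudocount of 0.1, 12 with no filter (9 of them shared), 1 (SNCG) with a filter at 5 FPKM, 12 without trend and robust options, 6 with the muscle marker level as covariate (5 shared), and 6 to 15 without 1 breed. A fit of all 83 single-tissue libraries, which share 1 estimate of the spread with a within-breed correlation of 0.161, called 208 genes (85 higher, 123 lower), the 12 among them, and also ATP6V0A4, GLYATL2, MYZAP, GBP1, KLHL4, DDO, APOOL, DTD2 and MTARC2. That estimate pools all tissues. GLYATL2 was under the filter in every other tissue, and ATP6V0A4 in heart, liver, spleen and both muscles. Their spread between adipose libraries can therefore be understated in this fit, and its extra calls are no independent support. Chosen after seeing the data, leaving out Meishan and Landrace gave 3 calls (2 shared) and leaving out Rongchang and Meishan 0 (1161 at an unadjusted p under 0.05). The 6 calls without Meishan became 10 with no filter, 0 at 5 FPKM (730 unadjusted), and 6 with a pseudocount of 0.1, of which 4 were shared and 0 were higher in Chinese adipose. They were the same 6 on FPKM as deposited, after quantile normalization and without trend and robust options, and became 0 to 4 without a further breed. The 1 call against other tissues became 0 on FPKM as deposited (1075 unadjusted), 0 with no filter (1417), 0 without trend and robust options (1149), 2 with a pseudocount of 0.1, 1 after quantile normalization and at 5 FPKM, and 0 to 2 without 1 breed. Scaling moved the median of all genes by at most 0.065. No gene followed through these settings changed sign in any setting in which it was tested. These genes were picked by p or with results of these data known, and their groups did not overlap. Leaving out a breed could then hardly change a sign, so this adds no support. The cause of the changes in the calls was not tested. No paired analysis was possible because Chinese and Western adipose come from different breeds and the labels give no replicate numbers that pair them. The test against other tissues is within breeds by its construction. Unknown read depth and the number of libraries, 4 against 5, limit these results.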
